A study of Homo sapiens with 11 samples.

Results

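The letters A, B and C label the replicate arrays of a drug experiment in SCC9 cells, a long-established line grown out of a human tongue cancer of squamous type. The differences between these replicate sets, after removal of the treatment, are described here. All 11 arrays of the series belong to a set. Set C holds 3 arrays (control, cisplatin and nimesulide), set B holds 4 and set A holds 4, the last 2 sets each having the combination as well. Cells received cisplatin at 0.5 µmol/L, which is a DNA-crosslinking platinum compound, or 100 µmol/L nimesulide, an inhibitor of the prostaglandin-forming enzyme cyclooxygenase-2, or both, or neither, and all came from the same line grown in the same medium with serum. A combination array of set C was not analysed here. The sample labels also spell the line SSC9. The labels speak of triplicate experiments, and the deposited protocol lists RNA of all treatments under each letter, but neither says whether arrays of the same letter came from a common culture, passage or day. The p-values therefore measure the spread between these arrays, which may be technical.

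The 3 comparisons asked which genes differ between cells that had the same treatment but another replicate letter. Set B was compared with set A over 4 treatments, and set C was compared with set A and with set B over 3 treatments. Each value is a log2 intensity from RMA, a method that brings all arrays to a common distribution and summarises the probes of a transcript as a probe set. Each difference is the mean of the differences within treatments, tested with limma, and was called at a Benjamini-Hochberg adjusted p under 0.05 over all 16383 probe sets. A gene is represented by its brightest probe set with 1 gene symbol, which gave 8549 genes. The comparisons share arrays, so a set that differs from both others appears in 2 of them.

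Cells of squamous carcinoma lines keep parts of the keratinocyte programme, in which keratins, kallikrein proteases and envelope proteins are made as cells stratify. Epithelial cells also run innate signalling in culture. Interferons act through a transcription complex that binds the interferon-stimulated response element and raise antiviral and antigen-presenting proteins, while NF-kappaB binds its own site and raises cytokines such as interleukins 6 and 8. Lipid synthesis is switched by sterol regulatory element-binding proteins, one of which is encoded by SREBF1. These programmes are known to respond to density, serum and stress of a culture.

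Promoter stretches of 5 genes that differed between sets B and A are shown. Only genes with a match to the searched letters before the start could be shown, so called genes without a match are left out. The stretches are RefSeq sequences of build GRCh38.p14, on the plus strand, from the 250 bases before each gene's start. In the first 2, capitals mark the core of the interferon-stimulated response element, which was searched as TTTC, any 2 bases and TTTC again. In the other 3, capitals mark GGNNTTTCC, a form of the NF-kappaB site. Both strands were searched, and the 2 motifs were searched separately. The stretches lie at chr1:78649731-78649788 (IFI44), chr10:89327801-89327924 (IFIT3), chr4:73740438-73740526 (CXCL8), chr4:73869275-73869388 (CXCL1) and chr7:22727088-22727176 (IL6).
IFI44: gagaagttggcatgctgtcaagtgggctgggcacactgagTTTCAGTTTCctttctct
IFIT3: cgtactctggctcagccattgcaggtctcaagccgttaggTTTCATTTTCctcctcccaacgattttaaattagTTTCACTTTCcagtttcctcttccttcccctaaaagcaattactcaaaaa
CXCL8: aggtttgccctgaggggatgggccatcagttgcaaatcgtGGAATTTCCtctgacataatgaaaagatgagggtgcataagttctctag
CXCL1: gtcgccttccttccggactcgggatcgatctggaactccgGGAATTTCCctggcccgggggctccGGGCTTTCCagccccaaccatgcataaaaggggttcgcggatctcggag
IL6: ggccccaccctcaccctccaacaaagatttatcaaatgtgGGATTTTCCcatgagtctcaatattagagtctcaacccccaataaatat

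Over windows of 300 bases, the interferon letters were present in 3.23% of the 6835 promoters of measured genes and in 3.57% of all 35116 promoters. Of the interferon-stimulated genes on the list used here, 27 of 35 had a promoter in the table and 19 of these 27 (70.4%) held the letters. The NF-kappaB letters were present in 6.38% of the promoters of measured genes and in 6.26% of all. They were found in 13 of 19 genes (68.4%) of the list of NF-kappaB targets and cytokines. The letters TCACNCCAC of the sterol regulatory element were in 0.995% of promoters of measured genes, in 1.13% of all and in 1 of 18 lipid synthesis genes (5.56%). A match describes the sequence only, and these lists hold textbook targets of the factors.

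The array material differed between sets before any gene was compared. Total RNA in the deposited protocol was 0.624 to 0.849 µg per µl in set C, 0.7 to 2.28 in set B and 1.12 to 1.59 in set A. The range of set C lay below that of set A, and that of set B overlapped both. The labelled RNA made for hybridisation (cRNA) amounted to 22.976 to 34.064 µg in set C, 24.896 to 53.3 µg in set B and 23.5 to 28.9 µg in set A, so 3 of the 4 arrays of set B had more than any array of the other sets. The part of these amounts in the differences below was not tested. Every array came from cells of the same label, and the listed epithelial markers had summed log2 levels of 60.7 to 62.3 in set C, 60.4 to 61.2 in set B and 61.7 to 62.4 in set A over 8 of 12 markers measured. Sets B and A do not overlap in that sum, and KRT14, a keratin of basal cells, is the 1 marker of the 8 that was called between them. Of all genes, 0.597% were called lower in set B than in set A. For the markers of other cells, mean log2 levels ranged over nearly the same values in the 3 sets. They were 4.76 to 4.82 in set C, 4.74 to 4.84 in set B and 4.80 to 4.83 in set A for 8 of 8 fibroblast markers. They were 4.56 to 4.63, 4.59 to 4.65 and 4.50 to 4.70 for 7 of 9 leukocyte markers in sets C, B and A. Ranges of 5 of 5 endothelial markers (4.12 to 4.15, 4.07 to 4.16 and 3.96 to 4.15 in sets C, B and A) and of 3 of 4 melanocyte markers (4.57 to 4.72, 4.53 to 4.74 and 4.62 to 4.64) overlapped as well, and none of these 23 markers was called in any comparison by limma (0, 2 and 0 had an unadjusted p under 0.05 in B minus A, C minus A and C minus B). The files give no detection call, so whether these markers are absent cannot be read from them. In such bulk RNA, fewer cells of a type and less RNA per cell cannot be told apart.

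**Figure D1:**
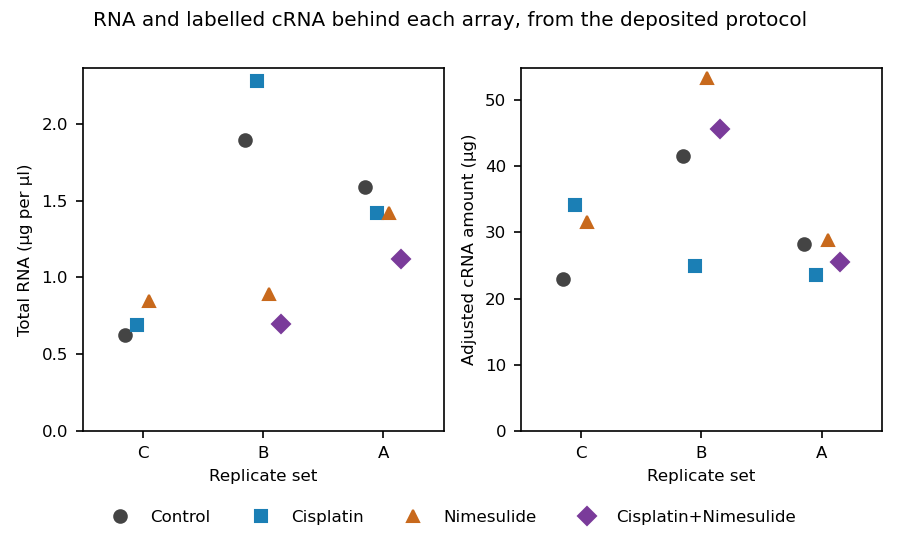
Total RNA (left, µg per µl) and adjusted amount of labelled cRNA (right, µg) behind each of the 11 arrays, by replicate set, with 1 marker per array and its shape giving the treatment. Set C has the lowest RNA (0.624 to 0.849) beside 2 arrays of set B (0.7 and 0.89), and set B has the 3 highest cRNA amounts.

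Without the combination arrays, the set letter took a larger share of the variation than treatment did. Over the 9 arrays of control, cisplatin and nimesulide, which hold every letter, the letter took 36.6% of the summed squares over all genes. Treatment took 27% and 36.3% was left, with 2, 2 and 4 degrees of freedom for letter, treatment and remainder. Over all 11 arrays, pairs of the same set and another treatment had a median r of 0.99722. Pairs of the same treatment and another set had nearly the same, 0.99706. The letter's share was larger than that of treatment in 4658 genes (54.5%). An F test over the 3 letters called 230 probe sets (1.4%) and 151 genes (1.77% of all genes). Differences between the same sets in different treatments, which share no array, correlated across the 8549 genes with r of 0.138 to 0.404 for B minus A (6 pairs of treatments), 0.122 to 0.307 for C minus A (3 pairs) and 0.229 to 0.33 for C minus B (3 pairs). Spearman's rho was lower, at 0.0822 to 0.264, 0.0833 to 0.275 and 0.155 to 0.259. The sign was the same in 48.9% to 55.6%, 49.7% to 56.7% and 52.3% to 56.4% of genes. These values describe these arrays, and genes are not independent replicates.

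Set B was most often the highest or the lowest set, and set C lay between the other sets in 107 of the 151 genes of the F test. Of 169 genes called in any of the 3 comparisons, 40 were called in set B against both other sets, with B above or below both in all 40. Set A was called against both other sets, in the same direction, in 9 genes, and 1 gene was called in all 3 comparisons. Among the 151 genes of the F test, the mean of set B was the highest or the lowest in 144 (95.4%), that of set A in 114 (75.5%) and that of set C in 44 (29.1%). The order B above C above A was found in 60 of these genes and its reverse, A above C above B, in 47. Set C was above A, with B lowest, in 26 genes, and 11 genes had B above A above C. The remaining orders, C above B above A and A above B above C, were found in 5 and 2 genes. Every gene has a highest and a lowest set, so large shares at the ends arise for any set, also where the sets do not differ. Over all 8549 genes the 6 orders held between 13.6% and 20.7% each. The order B above C above A held 16.5% of all genes and 39.7% of the 151. Its reverse held 17.7% and 31.1%.

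**Figure D2:**
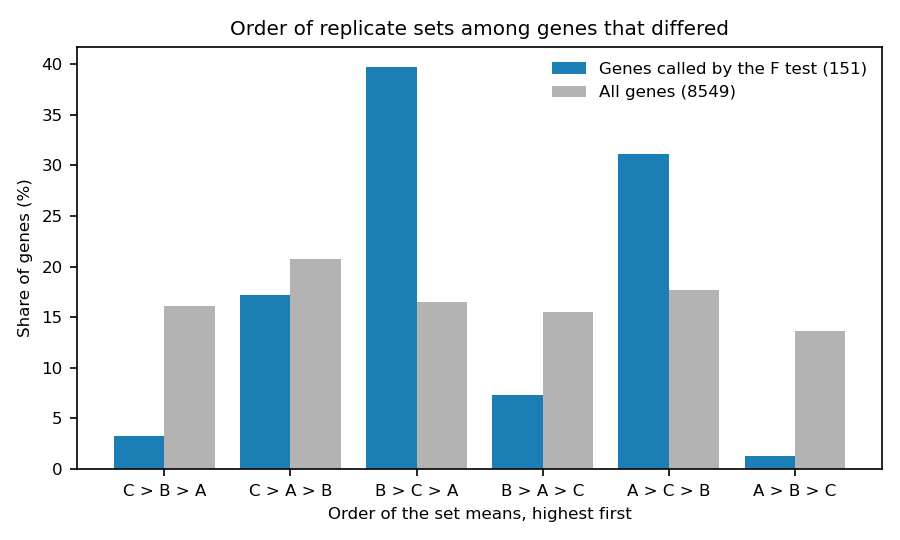
Share of genes (%) with each order of the set means over 9 arrays, for the 151 genes called by the F test (blue) and for all 8549 genes (grey). The orders B > C > A (39.7% of the called genes) and A > C > B (31.1%) stand above their shares among all genes (16.5% and 17.7%).

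Set B differed from set A at 187 probe sets (1.14%), 103 higher (0.629%) and 84 lower (0.513%). These were 124 genes (1.45%), of which 73 were higher in set B (0.854% of all genes) and 51 lower (0.597%). The differences were small: the median size over called genes was 0.43 on the log2 scale (1.34-fold), 28 genes differed by at least 1.5-fold, and ROBO1 and CDH11 by at least 2-fold. The sign was the same in all 4 treatments in 121 of the 124. The call rests on these same differences, so this agreement follows largely from it and is no separate support. Differences were smallest in the combination, where the median in the called direction was 0.28, against 0.49 in nimesulide, 0.49 in cisplatin and 0.47 in control arrays, and 72 of the 124 genes had their smallest difference there. Without the combination, 251 probe sets were called, whereas 48 were called without controls, 81 without cisplatin and 64 without nimesulide. Leaving out the control array gave 100 for that of set B and 101 for that of set A, the cisplatin array 102 and 116 in the same order, and the nimesulide array of set A 111.

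Set C differed from set A at 18 probe sets (0.11%), 12 higher (0.0732%) and 6 lower (0.0366%), and at 11 genes (0.129%), 8 higher (0.0936% of all genes) and 3 lower (0.0351%). It differed from set B at 120 probe sets (0.732%), 60 higher (0.366%) and 60 lower (0.366%), and at 83 genes (0.971%), 43 higher in set C (0.503%) and 40 lower (0.468%), and 18 of these genes differed by at least 1.5-fold. All called genes of these comparisons kept their sign in all 3 treatments, which again follows largely from the call. Calls of set C depended on single arrays. C minus A gave 0 called probe sets by limma without the controls (929 had an unadjusted p under 0.05), 1 without cisplatin and 4 without nimesulide, with 1 when any array of set C was left out. It gave 2 without the control array of set A, 8 without its cisplatin array and 29 without its nimesulide array. C minus B gave 9 without controls, 56 without cisplatin and 47 without nimesulide. It gave 19, 31 and 51 without the control, cisplatin and nimesulide array of set C, and 47 and 74 without the control and cisplatin array of set B.

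The largest rises in set B against set A were in ROBO1, CDH11 and TSPAN8. ROBO1, a receptor for Slit guidance proteins, had log2 levels of 4.70, 4.96, 4.22 and 3.87 in the control, cisplatin, nimesulide and combination arrays of set B, against 3.29, 3.31, 3.33 and 3.38 in those of set A. All arrays of set B were above all of set A, most in control and cisplatin. The difference was 1.11 ± 0.14 (SE), or 2.16-fold (adjusted p = 0.00157). In set C, ROBO1 was 3.72, 3.73 and 3.73, which was lower than in set B by limma (difference -0.90 ± 0.12, adjusted p = 0.00464).

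CDH11, a cadherin best known from mesenchymal cells, had 6.86, 6.91, 6.26 and 6.75 in set B, against 5.61, 5.79, 5.80 and 5.51 in set A, in the same order of treatments. Again no array of set B was within the range of set A. The difference was 1.02 ± 0.10 (adjusted p = 0.000347), and the gene's other probe set was also called. This probe set is of the kind marked as able to bind related transcripts. Set C, at 6.45, 6.63 and 6.26, was above set A as well (0.71 ± 0.12, adjusted p = 0.0411), and its difference from set B did not pass (-0.23, adjusted p = 0.450).

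TSPAN8, a tetraspanin of epithelial surfaces, had the smallest adjusted p of set B against set A among the 20 genes named here for size. Its levels were 4.91, 5.15, 4.55 and 4.58 in set B, against 3.97, 4.19, 3.83 and 3.52 in set A. The difference was 0.92 ± 0.07 (adjusted p = 5.28e-05). Set C had 5.04, 5.23 and 4.53, higher than set A by 0.94 ± 0.08 (adjusted p = 0.000490) and 0.07 above set B (adjusted p = 0.792). Set A was thus the low set for this gene in every treatment. All levels of ROBO1 and TSPAN8 lay below the array medians (5.37 to 5.43).

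Further large rises of set B were found in SLCO1B3, PXDN, OLR1 and GPRC5B. SLCO1B3, an uptake transporter for organic anions, had 6.05, 6.34, 6.06 and 6.44 in set B, against 5.37, 5.57, 5.52 and 5.46 in set A (0.74 ± 0.07, adjusted p = 0.000252). Its level in set C, 5.92, 6.05 and 5.97, was above that of set A by 0.49 ± 0.07 (adjusted p = 0.0180). PXDN, which crosslinks collagen IV of basement membranes, was higher in set B by 0.77 ± 0.08 (adjusted p = 0.000388), OLR1, a receptor for oxidised low-density lipoprotein, by 0.81 ± 0.12 (0.00295), and the orphan receptor GPRC5B by 0.84 ± 0.10 (0.00124). The other probe sets of PXDN and GPRC5B had the same sign and were not called. PLAU, the urokinase plasminogen activator, was 6.73, 6.56, 6.68 and 6.08 in set B, against 5.86, 5.93, 5.89 and 5.92 in set A. It was higher in set B by 0.61 ± 0.09 (adjusted p = 0.00419), and it was the 1 gene of 22 listed for matrix proteolysis that was called on its brightest probe set. Of all genes, 0.854% were called higher in set B than in set A. Other probe sets of TIMP3, an inhibitor of metalloproteinases, were higher in set B (0.75, adjusted p = 0.000388, and 0.51, 0.00525), and the first of them was lower in set C than in set B (-0.54, 0.00814).

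**Figure D3:**
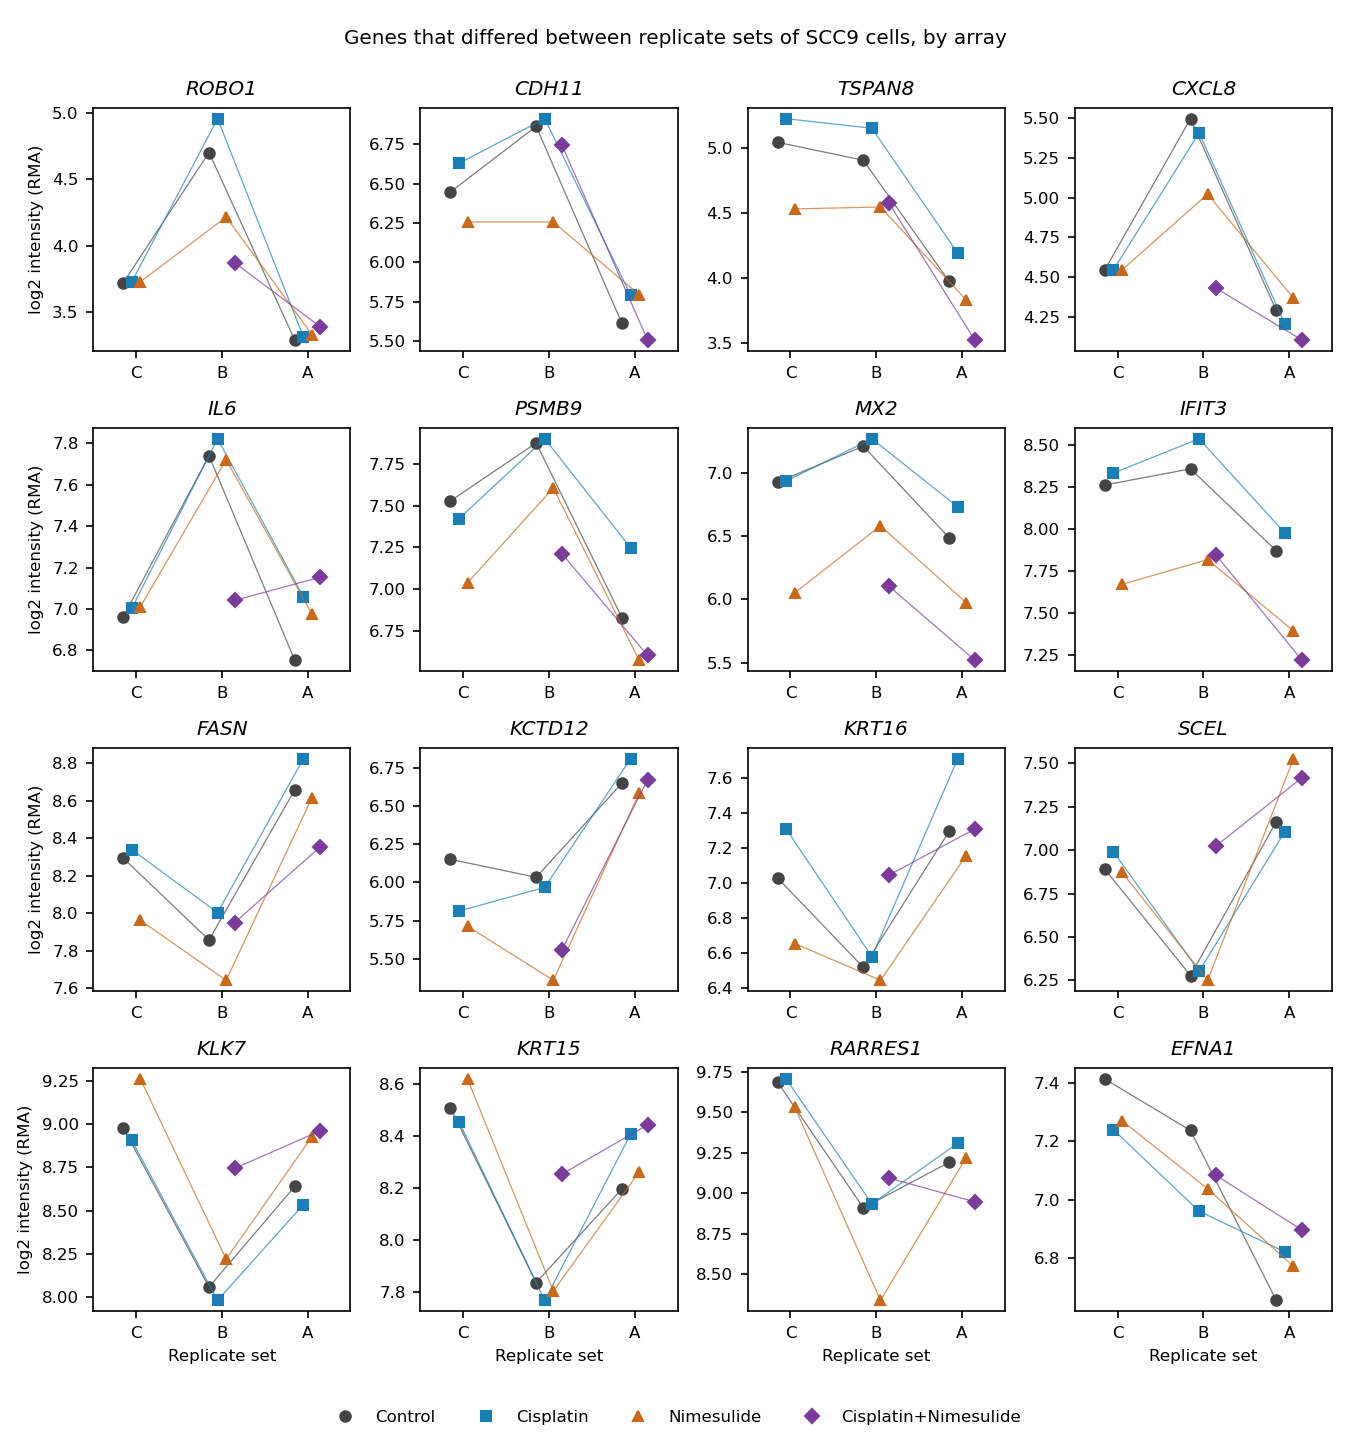
Log2 RMA intensity of 16 genes in all 11 arrays (vertical axes differ between panels), by replicate set C, B and A, with a marker for each treatment and lines joining arrays of the same treatment. In control, cisplatin and nimesulide arrays, ROBO1, CXCL8 and IL6 peak in set B, and KLK7, KRT15 and RARRES1 are lowest there, while set A has the lowest TSPAN8 and the highest KCTD12.

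Interferon-stimulated genes were higher in set B than in set A. Of 35 measured members of the list, 32 were higher and 11 were called, all higher, with a median difference of 0.28, against -0.00094 over all genes. Among all genes, 49.5% were higher and 0.854% were called higher. The median was 0.46 in control, 0.35 in cisplatin, 0.18 in nimesulide and 0.09 in combination arrays. Compared with set A, 30 members were higher in set C (median 0.17), against 53.2% of all genes. None was called by limma on its brightest probe set, and 18 (51.4%) had an unadjusted p under 0.05, against 8.46% of all genes. Compared with set B, 30 were lower in set C (median -0.15) with 6 called, all lower. Among all genes, 54.4% were higher in set C than in set B and 0.468% were called lower. Other probe sets than the brightest were called for OAS1 in set C against set A (0.41, adjusted p = 0.0385), and for OAS2 (0.43, 0.0334) and SP110 (0.44, 0.0216, and 0.30, 0.0320) in set B against set A, where their brightest probe sets were not. Of the 11 members called in set B against set A, 9 had a promoter in the table and 5 of these held the interferon letters shown above: BST2, IFI44, IFIT1, IFIT3 and MX1. For the whole list, 19 of 27 promoters held them, so the called members did not hold them more often.

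IFIT3, an antiviral protein that binds its family members, had 8.36, 8.54, 7.82 and 7.84 in set B, against 7.87, 7.98, 7.39 and 7.22 in set A. It was higher in set B in every treatment while the nimesulide-containing arrays were the low ones of both sets. The difference was 0.52 ± 0.06 (adjusted p = 0.000389). MX2, a dynamin-like antiviral GTPase, had 7.21, 7.27, 6.58 and 6.10 in set B, against 6.49, 6.73, 5.97 and 5.52 in set A (0.61 ± 0.06, adjusted p = 0.000388). Here too each array of set B was above its partner of the same treatment.

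OAS1, which makes the activator of an RNA-degrading enzyme, was 7.93, 7.80, 6.75 and 6.64 in set B, against 6.88, 6.98, 6.35 and 6.30 in set A. Its difference of 0.65 ± 0.10 (adjusted p = 0.00350) was made up of 1.05 in control, 0.82 in cisplatin, 0.40 in nimesulide and 0.34 in combination arrays, and its change with nimesulide did not pass (adjusted p = 0.356). RSAD2 (viperin) was higher in set B by 0.65 ± 0.08 (adjusted p = 0.00158), XAF1, a pro-apoptotic interferon target, by 0.72 ± 0.10 (0.00307), and IFI44 by 0.60 ± 0.08 (0.00177). MX1 was 9.27, 9.33, 8.48 and 7.95 in set B, against 8.63, 8.70, 7.86 and 7.87 in set A, and its difference of 0.49 ± 0.09 (adjusted p = 0.0114) was 0.081 in the combination. Against set B, set C was lower in IFI6 (-0.70 ± 0.10, adjusted p = 0.00854), OAS2 (-0.67 ± 0.13, 0.0339) and MX1 (-0.46 ± 0.07, 0.00838).

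Genes that cut and load peptides for antigen presentation were likewise higher in set B than in set A. Of 16 measured, 15 were higher in set B than in set A (49.5% of all genes were higher) and 5 were called higher (0.854% of all genes): the immunoproteasome subunits PSMB8, PSMB9 and PSMB10, the peptide transporter TAP1 and the class I chain HLA-B. The median difference was 0.25 in control and in cisplatin, 0.20 in nimesulide and 0.053 in combination arrays, where 9 of 16 were higher. PSMB9 had 7.88, 7.90, 7.61 and 7.21 in set B, against 6.83, 7.25, 6.58 and 6.60 in set A. The lowest array of set B was below the cisplatin array of set A, and every difference within a treatment was positive. It came to 0.83 ± 0.08 (adjusted p = 0.000347). PSMB8 was higher by 0.46 ± 0.06 (adjusted p = 0.00177), TAP1 by 0.46 ± 0.07 (0.00486), HLA-B by 0.42 ± 0.07 (0.00941) and PSMB10 by 0.39 ± 0.06 (0.00525).

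The subunits PSMB9 and PSMB10 had different places for set C. PSMB10 had 7.41, 7.22 and 7.03 in set C, against 6.86, 6.85 and 6.43 in set A, a difference of 0.51 ± 0.07 (adjusted p = 0.0180), and was 0.08 above set B (adjusted p = 0.697). PSMB9, at 7.53, 7.42 and 7.04 in set C, was below set B by 0.46 ± 0.09 (adjusted p = 0.0370) and above set A by 0.44 ± 0.09, which did not pass (0.125). The constitutive proteasome, with 26 listed genes measured, had no called gene in any of the 3 comparisons by limma. Of the 26, 24 were nevertheless higher in set B than in set A (median 0.06), against 49.5% of all genes. Within treatments, 19 were higher in control, 8 in cisplatin, 25 in nimesulide and 22 in combination arrays. HLA genes have near-identical copies, so the probe set of HLA-B may read related transcripts.

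Cytokine and NF-kappaB target genes were high in set B against both other sets. Of 24 measured, 21 were higher in set B than in set A, with 7 called, all higher (median 0.20). Among all genes, 49.5% were higher and 0.854% were called higher. The median was 0.29 in control, 0.23 in cisplatin, 0.29 in nimesulide and 0.03 in combination arrays, where 14 of 24 were higher. In set C, 20 were lower than in set B, with 5 called, all lower (median -0.18), whereas 54.4% of all genes were higher and 0.468% were called lower. Set C had 20 of the 24 higher than set A, with a median of 0.08, against 53.2% of all genes higher. None was called by limma, and 3 (12.5%) had an unadjusted p under 0.05, against 8.46% of all genes. All 6 genes called in set B against set A that had a promoter in the table, CXCL1, CXCL8, IL32, IL6, NFKBIA and TNFAIP3, held the NF-kappaB letters. For the whole list, 13 of 19 promoters (68.4%) held them, and whether the called members differ from the list was not tested.

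CXCL8, the neutrophil attractant interleukin 8, had 5.50, 5.41, 5.02 and 4.43 in set B, against 4.29, 4.21, 4.37 and 4.11 in set A. The arrays of set B did not overlap those of set A, but the combination array stood close to them. The difference was 0.84 ± 0.12 (adjusted p = 0.00232), with the gene's other probe set called as well. Set C had the same value, 4.545, in each treatment, below set B by 0.76 ± 0.10 (adjusted p = 0.00408). The other probe set was lower in set C than in set B as well (-0.45, adjusted p = 0.0382). The brightest probe set of CXCL8 is of the kind marked as able to bind related transcripts. Its levels in sets C and A lay below the array medians (5.37 to 5.43).

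IL6 had 7.74, 7.82, 7.72 and 7.04 in set B, against 6.75, 7.06, 6.98 and 7.15 in set A. Its combination array was below its partner of set A, whereas the other 3 were above all arrays of set A. The difference of 0.60 ± 0.13 (adjusted p = 0.0362) was called in 6 of 21 alternative fits. With the 3 treatments shared with set C, whose levels were 6.96, 7.0 and 7.01, set C was below set B by 0.77 ± 0.07 (adjusted p = 0.000442). CXCL1, another chemokine of neutrophils, was 4.79, 4.79, 4.70 and 4.14 in set B, against 3.95, 4.04, 3.99 and 3.98 in set A (0.62 ± 0.09, adjusted p = 0.00330). These levels were below the array medians (5.37 to 5.43).

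Feedback inhibitors of the pathway were high in set B too. TNFAIP3 (A20), which switches NF-kappaB signalling off, had 7.09, 6.89, 7.30 and 6.56 in set B, against 6.28, 6.55, 6.24 and 6.42 in set A (0.59 ± 0.12, adjusted p = 0.0243). The inhibitor NFKBIA was higher by 0.42 ± 0.09 (adjusted p = 0.0431), IL32 by 0.55 ± 0.10 (0.0153) and the chemokine CCL5 by 0.52 ± 0.09 (0.0114). Of 21 alternative fits, NFKBIA was called in 7, IL32 in 11, TNFAIP3 in 12 and CCL5 in 16. Over the 7 called genes the median difference was 0.85 in control, 0.54 in cisplatin, 0.71 in nimesulide and 0.15 in combination arrays. The combination had the smallest difference in 6 of the 7. THBD, thrombomodulin of the clotting system, was high in the same arrays of set B: 7.06, 7.14, 7.12 and 6.61 in set B, against 6.22, 6.57, 6.41 and 6.47 in set A (0.57 ± 0.09, adjusted p = 0.00681).

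**Figure D4:**
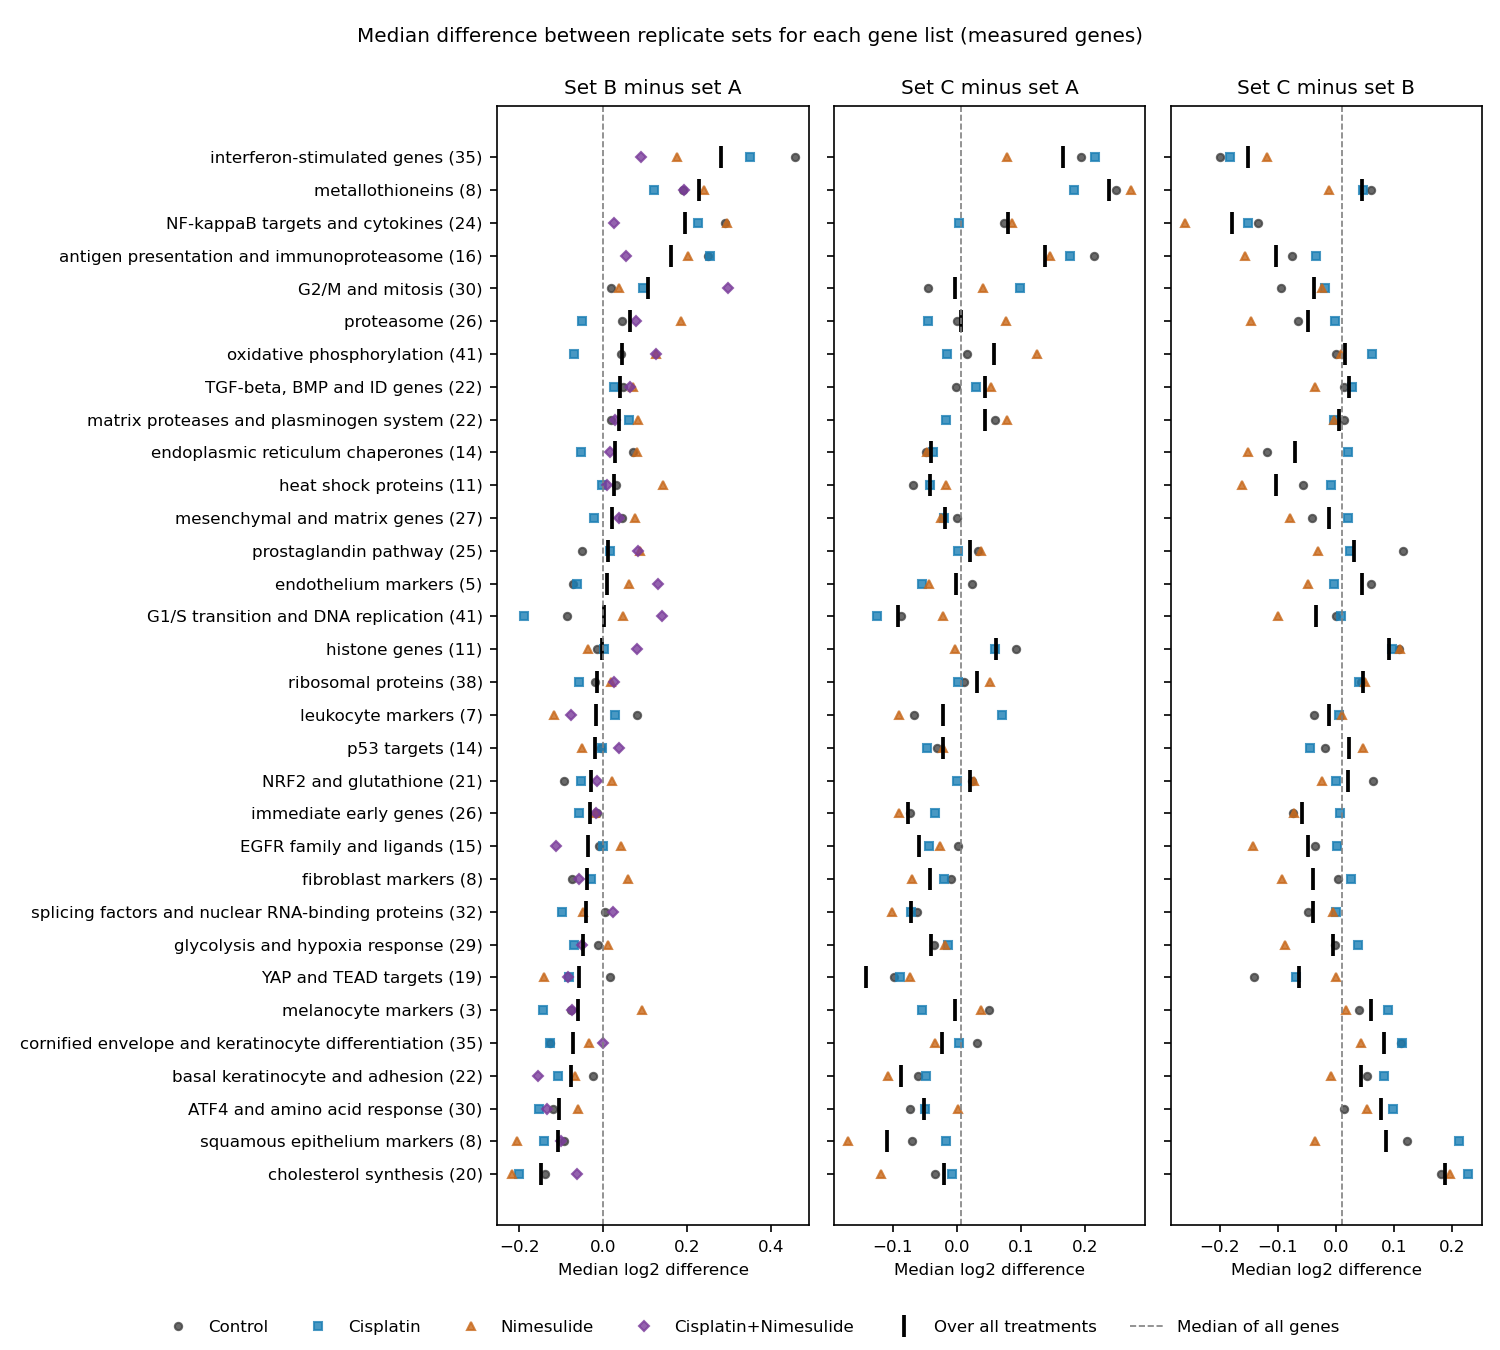
Median log2 difference between replicate sets for each of the 32 gene lists (number of measured genes in brackets), for B minus A, C minus A and C minus B. Coloured markers are medians within a treatment, black bars are medians of the differences averaged over treatments, and the dashed line is the median of all genes; the interferon list has the highest bar for B minus A (0.28) and the lipid synthesis list, marked cholesterol synthesis, the lowest (-0.15).

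Lipid synthesis genes were lower in set B than in set A. Of 20 measured genes of cholesterol and fatty acid synthesis, 18 were lower in set B (median -0.15) and 3 were called, all lower: FASN, SCD and SREBF1. Among all genes, 49.5% were higher and 0.597% were called lower. The median was -0.14 in control, -0.20 in cisplatin and -0.22 in nimesulide arrays, with at most 2 genes higher in set B, and -0.063 in the combination, where 8 of the 20 were higher. FASN, the fatty acid synthase, had 7.86, 8.0, 7.64 and 7.95 in set B, against 8.66, 8.82, 8.62 and 8.36 in set A. The groups did not overlap, and the smallest gap was in the combination. The difference was -0.75 ± 0.08 (adjusted p = 0.000388), and the gene's other probe set had the same sign and was not called.

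SREBF1, the factor that drives such genes, had 7.17, 7.09, 6.53 and 7.0 in set B, against 7.77, 7.58, 7.33 and 7.17 in set A (-0.52 ± 0.08, adjusted p = 0.00604). SCD, the stearoyl-CoA desaturase, fell by 0.45 ± 0.09 (adjusted p = 0.0225), and 1 of its 3 other probe sets was called with the same sign. Set C was above set B in 18 of the 20 genes (median 0.19), against 54.4% of all genes. Of the 20, FASN (0.36 ± 0.07, adjusted p = 0.0316), SREBF1 (0.42 ± 0.07, 0.0192) and PMVK, a kinase of the mevalonate pathway (0.40 ± 0.08, 0.0454), were called higher, against 0.503% of all genes. The other probe set of FASN had the opposite sign here, and another probe set of SCD was called higher in set C (0.47, adjusted p = 0.0220). Against set A, 15 of the 20 were lower in set C (median -0.02), and FASN was the 1 called (-0.50 ± 0.07, adjusted p = 0.0180), with 8.29, 8.34 and 7.96 in set C. Here 53.2% of all genes were higher and 0.0351% were called lower.

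Keratinocyte differentiation genes changed in both directions. Of 35 measured, 10 were higher and 25 lower in set B than in set A (median -0.07), and 2 were called higher and 6 called lower. Among all genes, 49.5% were higher, 0.854% were called higher and 0.597% called lower. The median was -0.13 in control and in cisplatin and -0.03 in nimesulide arrays, and in the combination 17 of the 35 were higher. Against set B, 22 were higher and 13 lower in set C (median 0.08), with 5 called higher and 1 called lower. Here 54.4% of all genes were higher, 0.503% were called higher and 0.468% called lower. SCEL, a precursor of the cornified envelope, had 6.28, 6.30, 6.25 and 7.03 in set B, against 7.16, 7.11, 7.53 and 7.42 in set A. The combination array of set B was apart from its other 3 and closest to set A. The difference was -0.84 ± 0.11 (adjusted p = 0.00155).

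KRT16, a keratin of activated keratinocytes, was 6.52, 6.58, 6.45 and 7.05 in set B, against 7.30, 7.71, 7.16 and 7.31 in set A (-0.72 ± 0.11, adjusted p = 0.00344). The protease inhibitors CSTA (-0.51 ± 0.07, adjusted p = 0.00211) and SLPI (-0.33, 0.0308) and the kallikreins KLK6 (-0.55 ± 0.07, 0.00199) and KLK7 (-0.51 ± 0.07, 0.00251) were also lower. LCN2, an iron-scavenging lipocalin, and S100A9, a calcium-binding protein of inflamed epithelium, were the 2 listed genes called higher in set B, by 0.59 ± 0.11 (adjusted p = 0.0145) and by 0.30 (0.0435). LCN2 was higher in set C than in set A as well (0.67 ± 0.10, adjusted p = 0.0209), with 6.47, 6.67 and 6.53 in set C, against 5.80, 6.14 and 5.72 in set A.

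KLK7, a protease that loosens contacts between cornified cells, had the smallest adjusted p of set C against set B among the 20 genes named here for size. Its levels were 8.98, 8.90 and 9.26 in set C, against 8.06, 7.98 and 8.22 in set B for control, cisplatin and nimesulide. The sets were well apart, by 0.96 ± 0.06 (adjusted p = 1.9e-05). Set A was between them at 8.64, 8.54 and 8.93, and C minus A was 0.35, which did not pass (adjusted p = 0.0940). KLK8 was higher in set C than in set B by 0.54 ± 0.08 (adjusted p = 0.00903), KLK6 by 0.48 ± 0.08 (0.0145), SCEL by 0.64 ± 0.09 (0.00827) and KRT16 by 0.48 ± 0.09 (0.0300). SPRR1B, a cross-linked envelope protein, was lower in set C than in set B (-0.50, adjusted p = 0.0118).

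Of 22 measured basal and adhesion genes of keratinocytes, 15 were lower in set B than in set A (median -0.08). The 4 called were all lower: KRT14, KRT15, the desmosomal cadherin DSC3 and the hemidesmosomal integrin ITGB4. Among all genes, 49.5% were higher and 0.597% were called lower. KRT15 had 7.83, 7.77, 7.80 and 8.25 in set B, against 8.20, 8.41, 8.26 and 8.44 in set A (-0.41 ± 0.07, adjusted p = 0.0113). It had 8.51, 8.46 and 8.62 in set C, above set B by 0.73 ± 0.07 (adjusted p = 0.000825), the 1 gene of this list called between these sets. DSC3 fell by 0.46 ± 0.06 (adjusted p = 0.00177), ITGB4 by 0.32 (0.0125) and KRT14 by 0.60 ± 0.13 (0.0354). Of the 3 other probe sets of ITGB4, 1 had the same sign. KRT14 was equal in the combination arrays of sets B and A, at 5.21 in each, and was called in 8 of 20 alternative fits.

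The largest rises of set C against set B, after KLK7, were in RARRES1, PSCA and KRT15. RARRES1, a retinoid-induced membrane protein, had 9.69, 9.71 and 9.53 in set C, against 8.91, 8.93 and 8.34 in set B (0.91 ± 0.10, adjusted p = 0.00127). PSCA, a surface protein anchored by a lipid, had 9.44, 9.48 and 9.66 in set C, against 8.70, 8.70 and 8.79 in set B (0.80 ± 0.07, adjusted p = 0.000262). Neither pair of sets overlapped. MUC1, a membrane mucin, was higher by 0.57 ± 0.08 (adjusted p = 0.00507), FXYD3, a regulator of the sodium pump, by 0.57 ± 0.06 (0.00129), MTUS1, which binds microtubules, by 0.67 ± 0.08 (0.00252), and the transporter SLC16A5 by 0.55 ± 0.07 (0.00246). These genes were named by the size of their difference.

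Other genes lower in set C than in set B were PTPRO, a receptor phosphatase (-0.78 ± 0.11, adjusted p = 0.00788), INHBA, the activin A subunit (-0.52 ± 0.07, 0.00659), and PLAU (-0.52 ± 0.07, 0.00464). The other probe set of PTPRO had the opposite sign. COL6A1, a collagen VI chain, was lower in set C than in set B (-0.59 ± 0.08, adjusted p = 0.00464) and higher in set B than in set A (0.53 ± 0.10, 0.0160). Of its 7 other probe sets, 5 had the same sign for B minus A and 2 for C minus B, and none was called. Of 27 measured matrix and mesenchymal genes, 1 was called higher in set B than in set A, and 3 lower in set C than in set B: COL6A1, COL4A2 and THBS1, of whose 4 other probe sets 3 had the same sign. The shares of all genes called in these directions were 0.854% and 0.468%.

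A few genes set A apart from both other sets. KCTD12, an auxiliary subunit of GABA-B receptors, had 6.15, 5.81 and 5.71 in set C and 6.03, 5.97, 5.36 and 5.56 in set B, against 6.65, 6.81, 6.58 and 6.67 in set A. Every array of set A was above every other array. The log2 difference from set A was -0.79 ± 0.11 in set C (adjusted p = 0.0180) and -0.95 ± 0.09 in set B (0.000347), with the gene's other probe set of the same sign and not called.

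TGFBI, an adhesion protein induced by TGF-beta, had 8.55, 8.55 and 8.49 in set C and 8.52, 8.52, 8.54 and 8.50 in set B, against 8.04, 8.15, 7.99 and 8.17 in set A. Its rise was 0.47 ± 0.06 in set C (adjusted p = 0.0180) and 0.43 ± 0.06 in set B (0.00192), and C minus B was 0.01 (0.984). ECM1, a matrix protein of skin, was lower than in set A in set C (-0.38 ± 0.06, adjusted p = 0.0483) and in set B (-0.54 ± 0.06, 0.000388). PEG10, an imprinted gene of retrotransposon origin, was lower in set B (-0.51 ± 0.08, adjusted p = 0.00405) and did not pass in set C (-0.41, 0.116).

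EFNA1, the membrane-bound ligand ephrin-A1, was higher in set C than in set A, with set B between them. Its levels were 7.42, 7.24 and 7.27 in set C, against 6.65, 6.82 and 6.77 in set A (0.56 ± 0.08, adjusted p = 0.0225). ALDH1A3, which makes retinoic acid, had 9.09, 8.87 and 9.12 in set C, against 8.29, 8.46 and 8.71 in set A (0.54 ± 0.09, adjusted p = 0.0411). Neither overlapped set A. Fewer than 5 genes were called lower in set C than in set A, so that the rule also named ACTN4 (-0.37, adjusted p = 0.110) and CLK4 (-0.35, 0.114), which did not pass.

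The prostaglandin pathway, which nimesulide acts on, had single genes that differed between sets. PTGER4, a receptor for prostaglandin E2, had 6.21, 6.50, 6.58 and 6.79 in set B, against 5.67, 6.28, 6.14 and 6.39 in set A. It was higher in set B by 0.40 ± 0.06 (adjusted p = 0.00631) and lower in set C than in set B (-0.49 ± 0.08, 0.0110). PTGES, a prostaglandin E synthase, was higher in set C than in set B (0.41 ± 0.06, adjusted p = 0.0117). The other genes of the 25 measured were not called in any of the 3 comparisons, and the median was 0.01 for B minus A, 0.02 for C minus A and 0.03 for C minus B. Among all genes, 0.854% were called higher for B minus A. For C minus B, 0.503% were called higher and 0.468% lower.

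In 10 lists with 261 measured genes no brightest probe set was called between any sets by limma, and 31, 36 and 29 of these genes had an unadjusted p under 0.05 in B minus A, C minus A and C minus B (11.9%, 13.8% and 11.1%, against 12.5%, 8.46% and 12.8% of all genes). They were the proteasome and metallothionein lists and cell cycle entry and DNA replication (41 measured genes), oxidative phosphorylation (41), ribosomal proteins (38), glycolysis and the hypoxia response (29), NRF2 and glutathione genes (21), endoplasmic reticulum chaperones (14), histones (11) and splicing factors (32). Other probe sets of 3 of these genes were called in set B against set A: the glucose transporter SLC2A3 (-0.29, adjusted p = 0.0292), the cyclin CCNE2 (0.30, 0.0262) and the splicing factor SRSF11 (-0.39, 0.00405). Metallothioneins, which bind zinc and copper, had a median of 0.23 for B minus A and 0.24 for C minus A, with 7 and 8 of 8 higher, none called, and 6 and 7 at an unadjusted p under 0.05. Their probe sets can bind several family members. In set C against set A, 35 of 41 DNA replication genes (median -0.09) and 28 of 32 splicing factors (median -0.07) were lower, while 53.2% of all genes were higher. Of these 2 lists, 22% and 25% had an unadjusted p under 0.05, against 8.46% of all genes. For B minus A the replication median was -0.09 in control, -0.19 in cisplatin, 0.05 in nimesulide and 0.14 in combination arrays. Genes of mitosis had a median of 0.11 for B minus A, with 26 of 30 higher. The median was 0.30 in the combination, with 30 of 30 higher, 0.04 in nimesulide, 0.09 in cisplatin and 0.02 in control arrays, and over the treatments without the combination it was 0.06. CCNB1, the mitotic cyclin B1, was the 1 called gene (0.30, adjusted p = 0.0186). Genes of the ATF4 amino acid response had a median of -0.11, with 25 of 30 lower, and PHGDH, the first enzyme of serine synthesis, was the 1 called (-0.30, adjusted p = 0.0252). Among all genes, 49.5% were higher in set B than in set A, 0.854% were called higher and 0.597% called lower.

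In each of 6 further lists, 1 or 2 genes were called. Lower in set B than in set A were JUND, an AP-1 subunit and 1 of 26 immediate early genes (-0.28, adjusted p = 0.0350), FOXF2, of 19 listed YAP and TEAD targets (-0.28, 0.0284), and SPRED2, an inhibitor of Ras signalling listed with 15 EGFR family genes (-0.32, 0.0216), of whose 2 other probe sets 1 had the same sign. Lower in set C than in set B were the chaperone HSPH1, of 11 heat shock proteins (-0.47, 0.00421), GADD45A, a stress sensor among 14 p53 targets (-0.47, 0.0251), and FOSL1, another AP-1 subunit (-0.39, 0.0497). A probe set of the YAP target CCN1 other than its brightest was also lower in set C than in set B (-0.44, 0.0115). TGFBI and INHBA, described above, were the called members of 22 genes of the TGF-beta and BMP list. The medians of these 6 lists lay between -0.06 and 0.04 for B minus A, between -0.14 and 0.04 for C minus A and between -0.10 and 0.02 for C minus B. Among all genes, 0.854% were called higher and 0.597% lower for B minus A. For C minus A 0.0936% were called higher, and for C minus B 0.468% lower. By limma, 14.3% (p53 targets) to 45.5% (TGF-beta and BMP) of a list had an unadjusted p under 0.05 for B minus A, against 12.5% of all genes. These shares were 7.14% to 27.3% for C minus A (all genes 8.46%). For C minus B they were 18.2% to 46.7% (all genes 12.8%), highest in the EGFR list.

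Whether the difference of set B from set A depended on nimesulide was tested with 2 pairs of arrays with it and 2 without. A single probe set of SNRPE, a core spliceosome protein, was called by limma among 16383 (0.0061%), and 1422 had an unadjusted p under 0.05. It had 5.04 and 5.27 in the control and cisplatin arrays of set B, against 4.46 and 4.48 in set A. With nimesulide and the combination it had 4.07 and 4.53 in set B, against 5.03 and 5.23 in set A. The sets thus changed places, with a change of -1.51 ± 0.13 (adjusted p = 0.00463). It is not the probe set that represents SNRPE among the 8549 genes, of which 0 were called. Leaving out the cisplatin array of set B gave 0 calls, leaving out the nimesulide array of either set gave 2, and leaving out the control array of set A gave 7.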

How the data were processed

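Total RNA of 11 samples was measured on Affymetrix U133A arrays. Per the labels, the authors normalised the arrays with RMA, and the deposited values are log2 intensities (2.53 to 13.4, array medians 5.37 to 5.43). No RMA version is given in the sources used here. RNA and cRNA amounts were read from the deposited protocol notes, whose other unit (µg) is that of the authors. Of 16383 probe sets, 14045 had 1 symbol, 792 several and 1546 none.

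Models with a term for set and a term for treatment were fitted with R 4.3.3 and limma 3.58.1, using lmFit and then eBayes with a constant prior variance. B minus A used all 11 arrays (5 residual degrees of freedom), and the contrasts of set C and the F test used the 9 arrays without the combination (4). The interaction with nimesulide used 11 (3). Precision is limited by the number of arrays: the median standard error was 0.06 (B minus A) and 0.07 (C minus A). Tests were two-sided. Because the letters may mark shared work, treatment was the pairing term, and same-set differences between treatments were checked as given above. The scripts were tested on simulated data.

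The named genes were, per comparison, the 10 largest called rises and falls with 1 sign in every treatment (the 5 smallest p where fewer than 5 were called), and called members of 32 lists (841 genes, 673 measured, some in several lists). The compared sets and the lists were chosen with earlier results of these data known. Alternatives were the fit without treatment, other arrays, quantile normalisation, bright probe sets, another variance prior and left-out arrays. Promoters came from RefSeq, matched by symbol. The duration of treatment is not given in the sources used here.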

Additional observations from a re-analysis of the deposited data

Results flagged for a closer look

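The groups examined were within-treatment differences of set B against set A (named genes called there, and list medians) and the RNA and cRNA amounts within each of these sets. Among 98 such groups of 4 values, 4 had a treatment apart from the other 3, by Dixon's criterion on the gap over the whole range. All 4 were differences of set B against set A. Chance flags about 1 in 20 such groups. CDH11 differed by 0.46 on the log2 scale in nimesulide arrays, against 1.12 to 1.25 in the others. MX1 differed by 0.081 in the combination, against 0.62 to 0.64. CCNB1 differed by 0.24 in nimesulide arrays, against 0.31 to 0.32. The median of the immediate early genes was -0.059 in cisplatin arrays, against -0.020 to -0.016 in the others.

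A probe set of SNRPE changed sign with nimesulide, with a difference of differences of -1.51 by the interaction test. Set C was between the others in all 3 of its treatments, at 4.78, 4.82 and 4.54.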

How the results depend on the processing

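With no replicate block, that is without the pairing of arrays by treatment, 82 probe sets were called for B minus A, 5 for C minus A, 63 for C minus B and 99 by the F test. Fitting all 11 arrays gave 23 for C minus B and 143 by the F test, and fitting the 8 arrays of sets B and A gave 111 for B minus A. With the trended, robust prior, 31 were called for C minus A, 192 for C minus B and 271 for B minus A. Quantile normalisation and the restriction to bright probe sets kept every count within 1.5 times. Leaving out a treatment gave 48 to 251 for B minus A, 0 to 4 for C minus A and 9 to 56 for C minus B. Leaving out a single array gave 100 to 251, 1 to 29 and 19 to 151, and 0 to 7 for the interaction with nimesulide. Causes were not tested, and fits without arrays have fewer samples. Of the genes named for being called, 14 of 62 for B minus A, 0 of 11 for C minus A and 5 of 47 for C minus B were called under every alternative, and none changed sign. The 14 were CDH11, ECM1, FASN, GPRC5B, KCTD12, KLK6, PSMB9, PXDN, ROBO1, SCEL, SLCO1B3, TGFBI, TSPAN8 and TTC9, and the 5 were CXCL1, KLK7, KRT15, PSCA and RARRES1. Other calls were kept in few alternatives. Among them were JUND (4 of 21 fits) and S100A9 (7 of 21) for B minus A. For C minus A they included ECM1 (2 of 17) and ALDH1A3 (5 of 17), and for C minus B FOSL1 (5 of 17). Among list medians, 38 values under alternatives moved by more than the spread between treatments (5 for B minus A, 25 for C minus A, 8 for C minus B). Among those of at least 0.1 in size that changed over 1.5 times when a treatment was left out were mitosis for B minus A (0.06 without the combination), YAP targets for C minus A (-0.07 without cisplatin, -0.09 without nimesulide, against -0.14), antigen presentation without nimesulide for C minus A (0.23, against 0.14) and C minus B (-0.06, against -0.10), heat shock proteins for C minus B (-0.06 without nimesulide, against -0.10), and squamous markers without nimesulide for B minus A (-0.07) and C minus A (-0.04), each against -0.11. The median of keratinocyte differentiation genes for B minus A, -0.07, was -0.04 without controls and -0.03 without cisplatin. The median of p53 targets for C minus A, -0.02, was 0.0011 without controls and -0.042 without nimesulide. With 3 or 4 pairs, differences of several standard errors could fail to be called by limma. For B minus A, IFI35 only just passed at 0.27 ± 0.06 (adjusted p = 0.0468). For C minus A, ACTN4 did not pass at -0.37 ± 0.07 (0.110). Lists with no call may therefore hold differences of such sizes.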
